A study of Schizosaccharomyces pombe with 21 samples.

Results

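The genes of amino acid biosynthesis in fission yeast (Schizosaccharomyces pombe) were followed while cells starved for phosphate, in the presence or absence of cycloheximide, which blocks translation elongation. Members were the protein-coding genes whose name consists of an amino acid prefix (arg, aro, his, ilv, leu, lys, met, pro, ser, trp, thr, tyr, cys, asn, gln, gdh or glt) and a number, leaving out products that are transporters or belong to tRNAs. This rule, which uses names and no measured value, gave 67 of the 6988 genes in the count table, and it removed 0 genes for their product. All 67 had enough counts to be tested, so that none was lost to the filter on low counts. They comprise 15 genes of sulphur amino acids (methionine and cysteine), 9 of arginine, 8 of aromatic amino acids, 7 each of lysine and histidine, 6 of the branched-chain amino acids, 6 of the entry of nitrogen into glutamate, glutamine and asparagine, 3 of serine, 2 of proline and 1 of threonine. The remaining 3 only share a name prefix: arg82 encodes an inositol polyphosphate kinase, and trp1322 and trp663 encode TRP-like ion channels. They were kept apart, which left 64 genes. Of these, gdh2 works in the direction of glutamate breakdown and is counted with the nitrogen genes by its name.

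Polyadenylated RNA of strain AGP72, whose labelled genotype is h- with no further allele, was sequenced in 7 groups of 3 libraries, which the labels call biological replicates. Cells of the 0 h group were in log phase with phosphate in YES medium. The other groups were starved in ePMGT(-PO4) medium for 2, 4 or 8 h, either without drug or with cycloheximide at 100 µg/ml. The series concerns Maf1, the repressor of RNA polymerase III, and the fate of cells under long phosphate starvation, and the drug arms follow starvation while translation is blocked. All groups share the strain. Each comparison with 0 h contains the move from YES to ePMGT(-PO4) as well as the loss of phosphate, and with drug also the drug, and these cannot be told apart. The labels do not give the amino acid content of either medium. Comparisons between starved groups share the medium.

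Fission yeast makes all the amino acids of its proteins. Carbon skeletons come from glycolysis, the citric acid cycle and the pentose phosphate pathway, nitrogen enters through glutamate and glutamine, and sulphur is reduced from sulfate before it is built into homocysteine, methionine and cysteine. When an amino acid runs short, uncharged tRNA activates the kinase Gcn2, which phosphorylates the initiation factor eIF2 alpha, and in fission yeast the GATA factor Fil1 then raises the transcription of synthesis genes, the role that Gcn4 has in budding yeast. The TOR kinase complex TORC1 adjusts growth and synthesis to nutrients.

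Library totals ranged from 22079413 to 33563867 counts. Levels are given as counts per 1000000 of the TMM-scaled library total (CPM), which is a share of the polyadenylated RNA, so that less of a transcript and more of all others cannot be told apart, and a change in a few cells and in all cells cannot either. CPM depends on transcript length, so levels are compared between groups for the same gene and not between genes. Starvation genes followed the labels without drug. From 0 to 8 h the mean CPM of pho1, a secreted acid phosphatase, went from 1591 to 28693. That of pho84 went from 959 to 5730 and that of tgp1 from 17.4 to 2152. With drug these genes differed. At 2 and 8 h with drug pho1 was at 1434.5 and 1112, below its 0 h mean. In the same groups pho84 was at 2005 and 1382 and tgp1 at 202 and 51.7, above their 0 h means. Of the mating-type genes, the M-factor gene mfm1 of h- cells went from a mean of 1.53 CPM at 0 h to 315 at 8 h and was 0.211 at 2 h with drug, while map2 of the opposite mating type was at 6.50, 7.46 and 56.3 in the same groups. Genes of the same type did not all move alike. In these groups mfm2 was at 58.7, 511 and 4.025, mfm3 at 1.24, 58.6 and 9.97, and mam2 at 6.08, 112 and 2.85. Beside map2, map3 was at 14.7, 25.3 and 11.6. These genes moved with starvation and drug, so they do not serve as a check of the labelled h-. A gene is called higher or lower, or said to rise or fall, at a Benjamini-Hochberg adjusted p below 0.05 over all 6392 tested genes together with at least a 2-fold change, by edgeR's quasi-likelihood test. Log2 fold changes are given ± SE and levels as the mean ± SD of 3 libraries. The spread between libraries of a group was small for these genes, with a median coefficient of variation of 2.14% (4 h) to 5.68% (8 h). Replicate 1 at 8 h without drug stood furthest from its group, and calls that involve 8 h are also given without it.

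Without drug, no gene of amino acid synthesis was called at 2 h of starvation, many were lower at 4 h, and more at 8 h. At 2 h against 0 h, 0 of the 67 genes were called higher and 0 lower, beside 3.94% and 1.81% of all tested genes. At an unadjusted p below 0.05 and any fold, 12 of the 67 were higher and 50 lower, and DESeq2 also called 0 in each direction. The median log2 fold change of the 67 genes was -0.29, against -0.02 over all genes. With an adjusted p below 0.05 and any fold, 49 of 67 were lower and 12 higher, where 34.6% of all genes were lower and 30.5% higher. At 4 h, 28 genes were called lower and 1 higher, the ion channel gene trp663, against 13.9% and 14.2% of all genes, with a median of -0.87 against 0.00 for all genes. At 8 h, 31 were called lower (15.6% of all genes) and 0 higher (19.0% of all genes), with a median of -0.97. For the higher direction, 6 genes had an unadjusted p below 0.05, and DESeq2 called 0. Leaving out the 3 genes that only share a prefix gave 28 lower and 0 higher at 4 h and 30 lower and 0 higher at 8 h. Without replicate 1 at 8 h, 33 were lower at 8 h.

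These counts depend on the scaling to a library total. Library size alone in place of TMM moved the median of all genes to 0.20 at 4 h and 0.19 at 8 h, and the split of the members to 3 higher and 12 lower at 4 h and 2 higher and 20 lower at 8 h. All genes then split into 1154 higher and 670 lower at 4 h (906 and 889 with TMM) and 1458 higher and 782 lower at 8 h (1212 and 997), while at 2 h they split into 294 and 76 (252 and 116). A change of scaling adds nearly the same value to every gene, so the distance between the median of the members and that of all genes was kept. Of the calls at 4 h, 13 of 29 were made under every alternative that tested the gene (a stricter filter removes 1 of the 13, trp663), and of those at 8 h 20 of 31. Library size alone was the only alternative to end those of lys7, lys12, lys2, arg3, arg1, leu2, leu1, ilv1, asn1, his2, ser2, met17 and thr1 at 4 h, and those of trp2, arg3, met9, arg82, met26, leu2, his2, lys9, met17 and gdh1 at 8 h.

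Between 2 h and 8 h of starvation, where medium and strain are shared, 19 of 67 genes were called lower (9.79% of all genes) and 0 higher (13.6% of all genes). Of the members, 6 had an unadjusted p below 0.05 in the higher direction, and DESeq2 called 0. The median of the members was -0.60 and that of all genes 0.00, and without replicate 1 at 8 h 20 were lower. By this comparison met14 fell most (-2.76 ± 0.04), followed by his1 (-1.89 ± 0.04), met26 (-1.58 ± 0.06), gdh1 (-1.55 ± 0.06) and ilv5 (-1.55 ± 0.06). The summed CPM of the 64 genes was 36992 ± 1072 at 0 h, 33622 ± 532 at 2 h, 20101 ± 308 at 4 h and 17147 ± 1009 at 8 h. As a share of the scaled library this is 3.70%, 3.36%, 2.01% and 1.72%. With library size alone the shares were 3.37%, 3.25%, 2.11% and 1.80%.

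**Figure D1:**
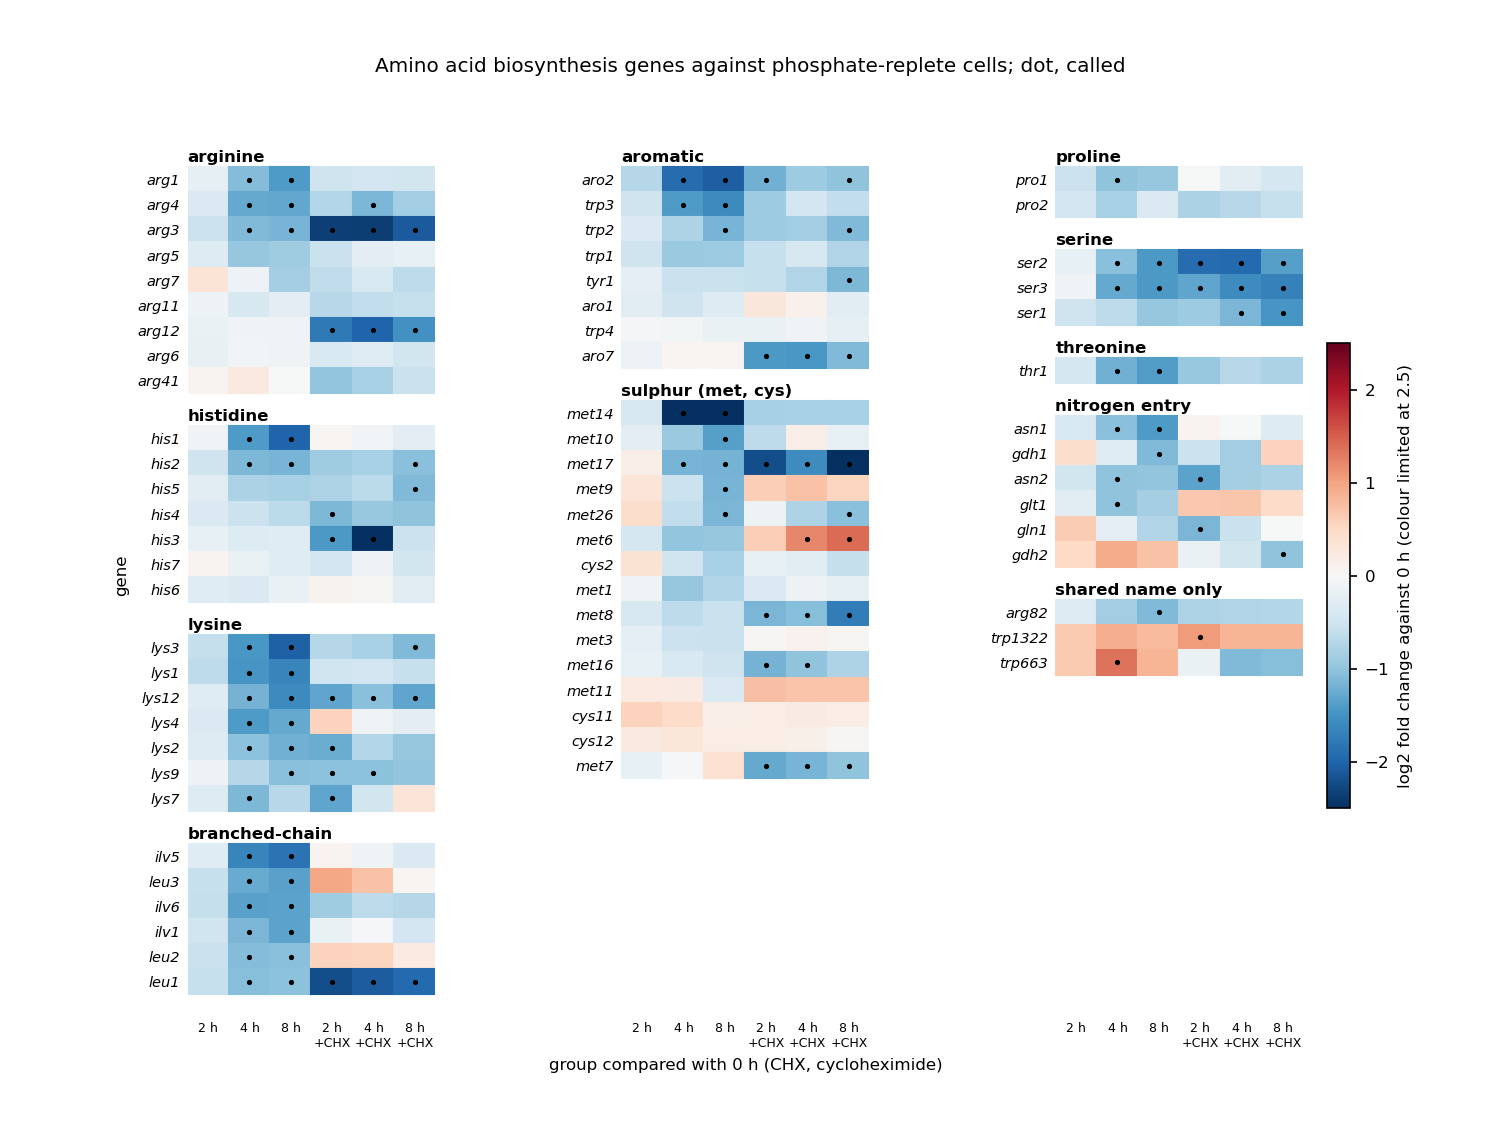
Log2 fold change of each of the 67 genes (rows, by pathway and then by the value at 8 h) in the 6 starved groups against 0 h (columns; CHX, cycloheximide), from 1 fit of 3 libraries per group. Dots mark calls, and the colour is limited at 2.5 on the log2 scale, so that met14 at 8 h (-3.18) is darker in value than shown; all 6 branched-chain genes are called lower at 4 and 8 h without drug, and 1 of them with drug.

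With cycloheximide, between 15 and 19 of the genes were called lower than at 0 h at each time, from 2 h on. Against 0 h, 19 were called lower and 1 higher (trp1322) at 2 h, beside 14.5% and 17.0% of all genes. At 4 h, 15 were lower and 1 higher (met6), beside 14.8% and 14.8%, and at 8 h, 19 lower and 1 higher (met6), beside 14.1% and 12.6%. Medians over the 67 genes were -0.66, -0.62 and -0.60, against -0.05, -0.07 and -0.06 over all genes. With library size alone the split at 8 h was 2 higher and 9 lower, the median of all genes moved to 0.18, and all genes split into 1100 higher and 635 lower (808 and 903 with TMM). The summed CPM of the 64 genes with drug was 30254 ± 656 at 2 h, 27751 ± 1202 at 4 h and 25612 ± 275 at 8 h, or 3.02%, 2.77% and 2.56% of the scaled library. With library size alone these shares were 2.97%, 2.72% and 2.74%.

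Set against the same time without drug, calls among these genes were mostly lower with drug at 2 h and mostly higher at 4 and 8 h. At 2 h, 12 were called lower with drug and 3 higher (leu3, leu2 and met6), beside 13.5% and 15.8% of all genes, with a median of -0.40. At 4 h, 9 were lower and 14 higher, beside 20.9% and 19.9%, with a median of 0.13. At 8 h, 7 were lower and 16 higher, beside 20.8% and 17.1%, with a median of 0.18. At 2 h the share of members called lower was little above the background, and the share called higher was below it. At 4 and 8 h the share of members called higher was near the background, and the share called lower was below it. The drug effect at 8 h minus that at 2 h was tested as an interaction, in which 19 of 67 genes were called higher and 1 lower (gdh2), beside 12.6% and 19.4% of all genes. The median of this interaction was 0.65 over the members and 0.02 over all genes. Without replicate 1 at 8 h the counts were 18 higher and 7 lower for the drug at 8 h, and 21 higher and 1 lower for the interaction.

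Within the drug arm few members changed by 2-fold after 2 h, and many by less in both directions. From 2 to 8 h with cycloheximide, 3 genes were called higher (gdh1, gln1 and lys7; 4.49% of all genes) and 0 lower (11.0% of all genes). Of the members, 28 had an unadjusted p below 0.05 in the lower direction, and DESeq2 called 0. With an adjusted p below 0.05 and any fold, 25 were higher and 27 lower, where 38.6% of all genes were higher and 37.1% lower. The median was -0.03, where it had been -0.60 over the same interval without drug.

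**Figure D2:**
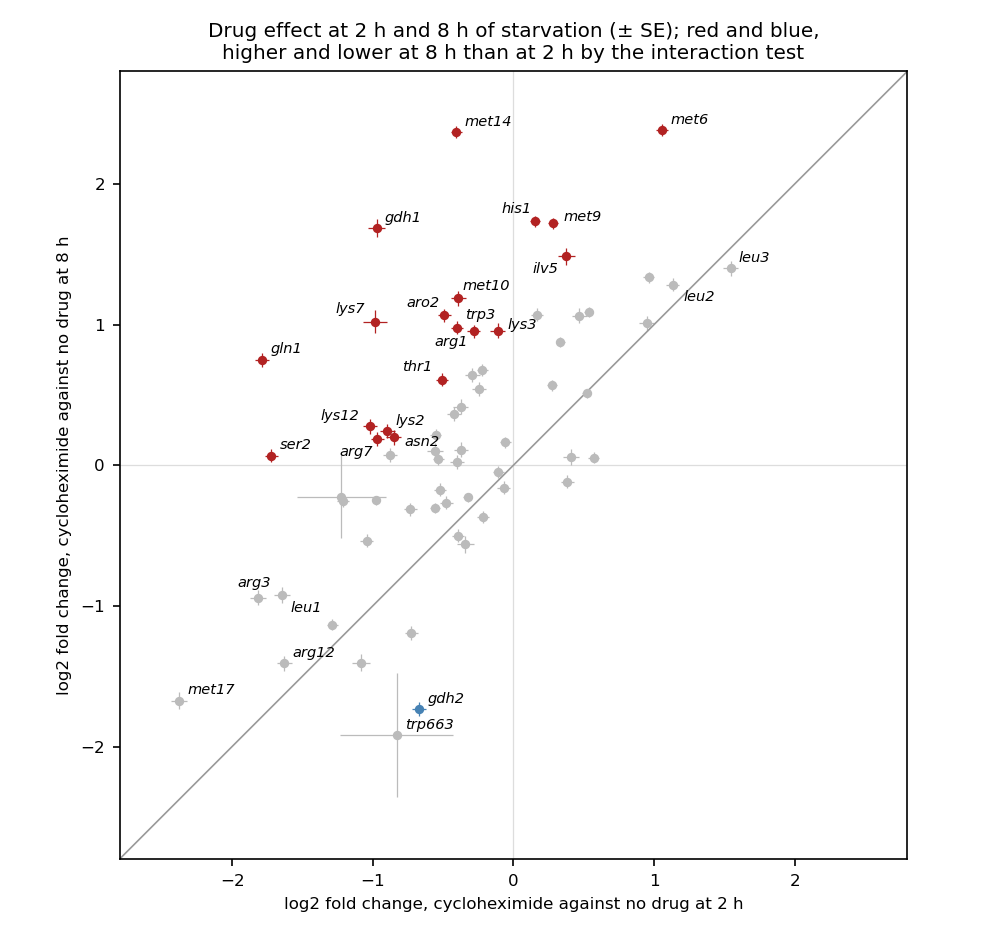
Log2 fold change of each of the 67 genes with cycloheximide against no drug at 2 h (horizontal axis) and at 8 h (vertical axis), each ± SE with 3 libraries per group; the diagonal marks equal effects. Red points are the 19 genes with a higher drug effect at 8 h by the interaction test and the blue point is gdh2; most points lie above the diagonal, and met14, gdh1 and gln1 furthest from it.

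**Figure D3:**
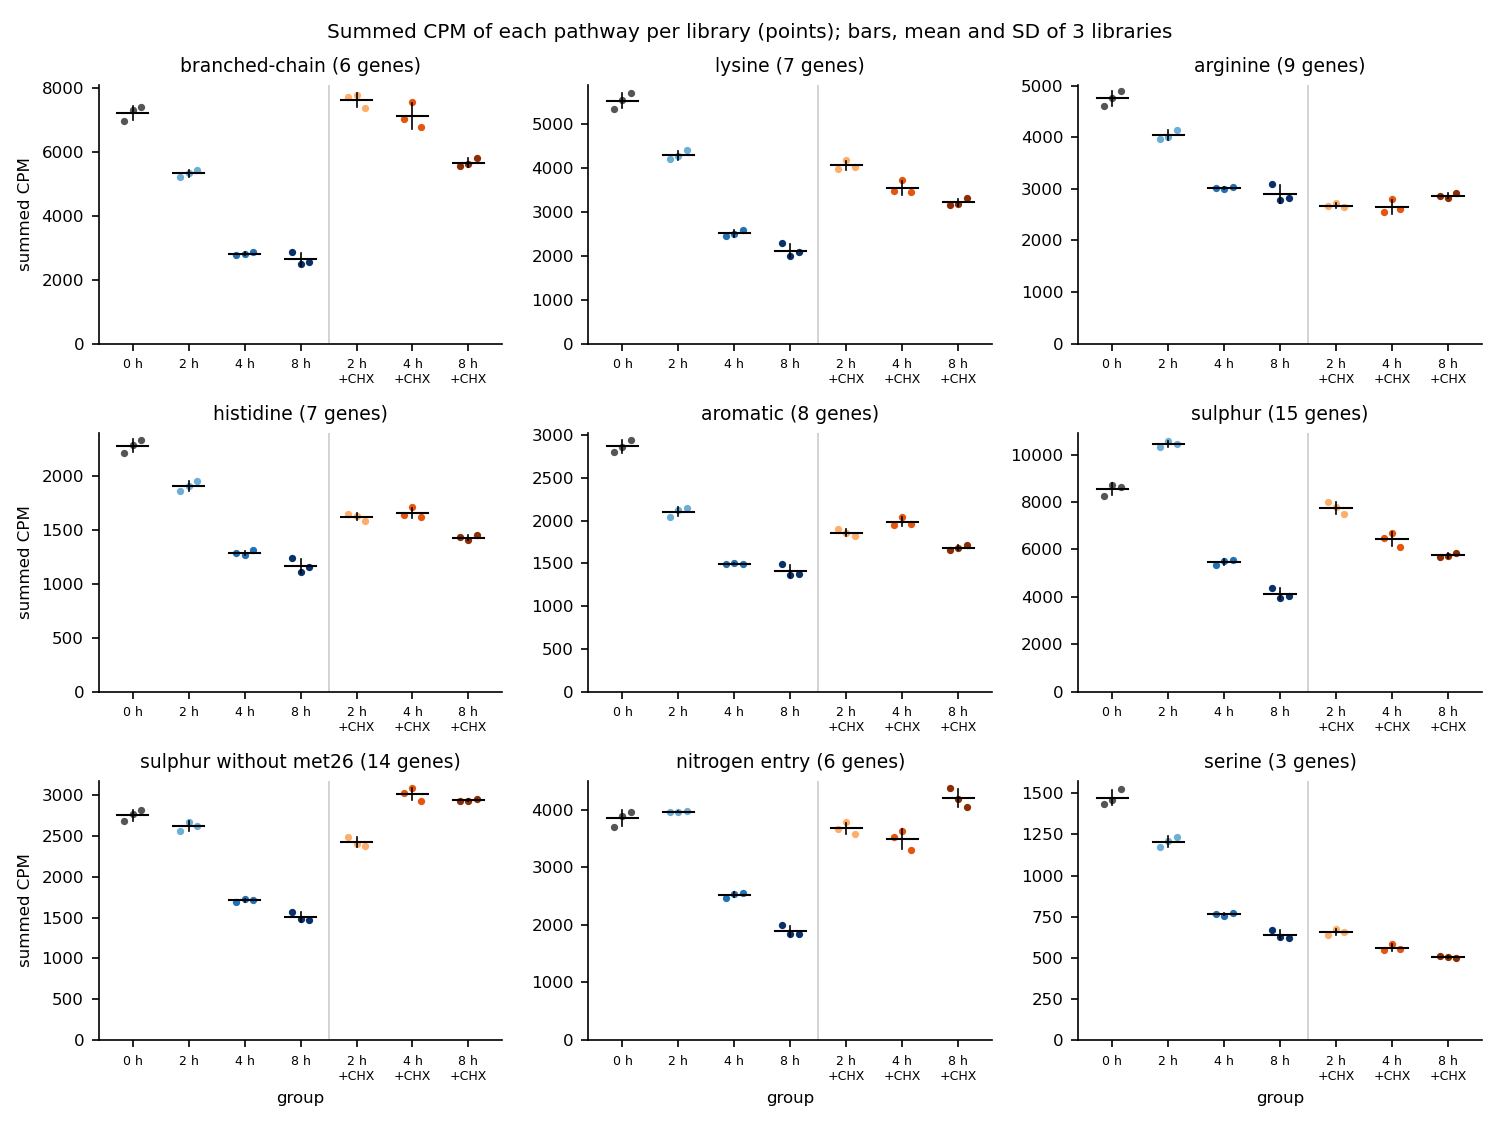
Summed CPM of the genes of each pathway (vertical axis, from 0) in every library, with the mean (horizontal bar) and SD (vertical bar) of 3 libraries per group; CHX, cycloheximide. Genes with many reads weigh most in a sum. The branched-chain sum lies near the 0 h level at 2 and 4 h with drug and at 0.389 and 0.365 of it at 4 and 8 h without, while the serine sum is low in both arms.

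All 6 branched-chain genes matched by the rule fell without drug, and with drug leu1 alone of the 6 was called lower than at 0 h. The branched-chain aminotransferase gene eca39, which the rule did not match, was called lower at 4 and 8 h in both arms. At 2 h of starvation the 6 log2 fold changes lay between -0.60 and -0.30 and none was called. At 4 h all 6 were called lower, from -1.64 to -1.06, and at 8 h again all 6, from -1.85 to -1.03. Over all genes these shares were 13.9% and 15.6%. The summed CPM fell from 7226 ± 221 at 0 h to 2636 ± 199.5 at 8 h, and with drug was 7621 ± 216 at 2 h, 7119.8 ± 399.5 at 4 h and 5658 ± 137 at 8 h. In order of the pathway, acetolactate synthase has the catalytic subunit ilv1 and the regulatory subunit ilv6, and ilv5 encodes the reductoisomerase shared by the valine, isoleucine and leucine branches. The CPM of ilv5 were 3166, 3368 and 3360.2 at 0 h, 2616, 2692 and 2705 at 2 h, 1035, 1048 and 1084 at 4 h and 1000.1, 854 and 884 at 8 h without drug. With drug, ilv5 read 3613, 3492 and 3287 at 2 h, 3101, 3265 and 2873 at 4 h and 2485, 2510.1 and 2681 at 8 h. The 4 h and 8 h libraries without drug lay far below all others, and those at 2 and 4 h with drug overlapped the range at 0 h. The change was -1.85 ± 0.06 at 8 h against 0 h (adjusted p = 6.59e-18), and the drug effect was 1.54 ± 0.06 at 4 h and 1.49 ± 0.06 at 8 h, both called. The subunits of acetolactate synthase both fell without drug (-1.34 ± 0.04 for ilv1 and -1.35 ± 0.05 for ilv6 at 8 h). With drug against 0 h they read -0.16, -0.03 and -0.46 for ilv1 and -0.89, -0.66 and -0.71 for ilv6 at 2, 4 and 8 h, none called. Of the pathway, ilv1 had the narrowest range of group means. The CPM of ilv1 were 516, 523 and 536 at 0 h, 365, 375 and 378 at 2 h, 234, 238 and 243 at 4 h and 216, 199 and 206 at 8 h without drug. With drug, ilv1 read 469, 470.3 and 470.4 at 2 h, 504, 529 and 508 at 4 h and 372, 380.2 and 389 at 8 h. Without drug the groups stepped down with no overlap, and those at 2 and 4 h with drug were close to 0 h. The drug effect on ilv1 was called at 4 h (1.11 ± 0.03).

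The leucine branch holds leu3 (2-isopropylmalate synthase, its committed step), leu2 (3-isopropylmalate dehydratase) and leu1 (3-isopropylmalate dehydrogenase). The CPM of leu3 were 754, 756 and 783 at 0 h, 507, 506 and 527 at 2 h, 308, 325 and 325 at 4 h and 322, 290.2 and 287 at 8 h without drug. With drug, leu3 read 1451, 1550.2 and 1489.9 at 2 h, 1214, 1383 and 1226 at 4 h and 802, 789 and 778 at 8 h. Here the drug libraries at 2 and 4 h lay above every other library, and those at 8 h were close to 0 h. Against no drug at the same time leu3 was higher by 1.54 ± 0.05 at 2 h, 2.00 ± 0.05 at 4 h and 1.40 ± 0.05 at 8 h, all called, with adjusted p = 9.13e-20 at 4 h. Its drug-arm values against 0 h, 0.97 at 2 h and 0.74 at 4 h, did not reach 2-fold, though the former did in 4 of 13 alternatives (compared groups only, DESeq2, RLE size factors and library size alone). For leu2 the CPM were 1048, 1099 and 1106 at 0 h, 730.0, 736 and 755 at 2 h, 514, 514 and 511 at 4 h and 558, 501 and 510.0 at 8 h without drug. With drug, leu2 read 1611, 1676 and 1585 at 2 h, 1570.3, 1703 and 1523 at 4 h and 1255, 1273 and 1289.6 at 8 h. All 9 drug libraries of leu2 were above all 12 without drug. The drug effect on leu2 was 1.13 ± 0.05, 1.64 ± 0.05 and 1.28 ± 0.05 at 2, 4 and 8 h. The CPM of leu1 were 802, 845 and 867 at 0 h, 546, 564 and 569.6 at 2 h, 402, 396 and 405 at 4 h and 456, 384 and 395 at 8 h without drug. With drug, leu1 read 183, 182 and 173 at 2 h, 192, 211 and 193 at 4 h and 207, 215 and 229.8 at 8 h. Opposite to leu2, all 9 drug libraries of leu1 were below the 12 without drug. Against 0 h the log2 fold change of leu1 with drug was -2.22 ± 0.06, -2.08 ± 0.06 and -1.95 ± 0.06 at 2, 4 and 8 h (adjusted p = 1.81e-19 at 2 h). Against no drug it was lower at 2 h (-1.64 ± 0.06) and at 4 h (-1.01 ± 0.06), the latter a call that ended with DESeq2, with RLE size factors and without replicate 1 or 3 at 4 h with drug, and it was not called at 8 h (-0.92 ± 0.06). In the 8 h comparison without drug, leu1 was the called gene nearest to the 2-fold limit (-1.03 ± 0.05), and the nearest gene outside was asn2 (-0.99 ± 0.05). The call of leu1 ended in 7 of 13 alternatives, and asn2 was called without replicate 1 at 8 h.

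**Figure D4:**
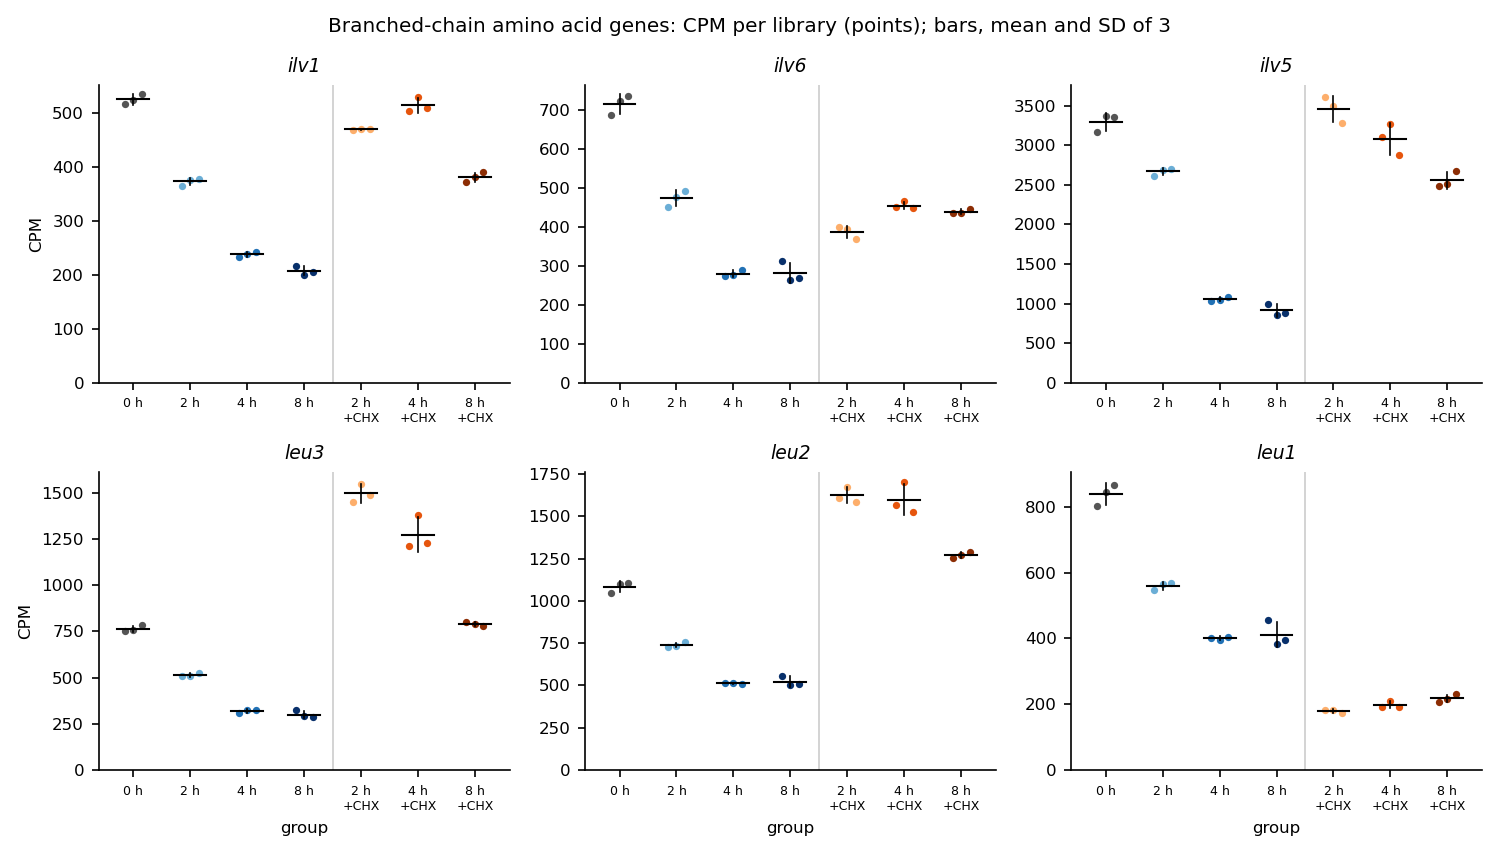
CPM (vertical axis, from 0) of the 6 branched-chain genes in every library (points), with the mean and SD of 3 libraries per group (bars); CHX, cycloheximide. Every gene is lower at 4 and 8 h than at 0 h without drug; with drug leu3 and leu2 are above, and leu1 below, all libraries starved for the same time without it.

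Lysine genes fell nearly as a block without drug. Fungi make lysine from 2-oxoglutarate through alpha-aminoadipate, with homocitrate synthase (lys4), homoaconitate hydratase (lys2), homoisocitrate dehydrogenase (lys12), the aminoadipate reductase lys1, its activating phosphopantetheinyl transferase lys7, and the saccharopine dehydrogenases lys9 and lys3. Of these 7 genes, 6 were called lower at 4 h (all but lys9, -0.71 ± 0.05) and 6 at 8 h (all but lys7, -0.70 ± 0.08), beside 13.9% and 15.6% of all genes. At 2 h all 7 were between -0.66 and -0.15, none called. The CPM of lys3 were 959.5, 992 and 1054 at 0 h, 645, 668 and 683 at 2 h, 355, 367 and 382 at 4 h and 267, 224 and 236 at 8 h without drug. With drug, lys3 read 598, 629 and 618 at 2 h, 550.5, 593 and 582 at 4 h and 470.2, 457 and 482 at 8 h. Levels of lys3 without drug stepped down from each time to the next with no overlap, and with drug lay between the 2 h and 8 h levels of the other arm. It fell by 2.05 ± 0.05 at 8 h (adjusted p = 1.5e-19), and was called lower at 8 h with drug too (-1.09 ± 0.05; not with library size alone). With drug, lys12 was lower than at 0 h at each time (-1.32 ± 0.05, -1.04 ± 0.05 and -1.32 ± 0.05), lys2 at 2 h (-1.24 ± 0.05), lys9 at 2 and 4 h (-1.03 ± 0.05 and -1.02 ± 0.05) and lys7 at 2 h (-1.33 ± 0.09). The calls of lys12 at 4 h and lys9 at both times ended with the compared groups only, RLE size factors, DESeq2 and library size alone, and that of lys9 at 4 h also without replicate 3 at 4 h with drug.

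The first enzyme, lys4, moved otherwise with drug. The CPM of lys4 were 1134, 1192 and 1187 at 0 h, 892, 887 and 938 at 2 h, 427, 428 and 464 at 4 h and 515, 449.8 and 482 at 8 h without drug. With drug, lys4 read 1654, 1839 and 1741 at 2 h, 1069, 1156 and 1035 at 4 h and 945, 964 and 1001 at 8 h. All 3 drug libraries at 2 h were above 0 h, though not by 2-fold (0.58 ± 0.05), those at 4 h overlapped it and those at 8 h lay below it. Against no drug, lys4 was higher by 1.31 ± 0.06 at 4 h and 1.01 ± 0.06 at 8 h, the latter a call that ended with a stricter filter, without replicate 2 at 8 h and without replicate 3 at 8 h with drug. Among the members, lys7 had the highest change from 2 to 8 h with drug. The CPM of lys7 were 22.9, 26.3 and 22.7 at 0 h, 17.8, 18.5 and 20.4 at 2 h, 10.8, 11.0 and 11.3 at 4 h and 14.5, 14.0 and 15.9 at 8 h without drug. With drug, lys7 read 9.42, 9.99 and 9.20 at 2 h, 16.2, 16.4 and 19.4 at 4 h and 28.8, 28.5 and 32.8 at 8 h. The 8 h libraries with drug were above all others, and the rise from 2 to 8 h was 1.65 ± 0.09 (adjusted p = 1.22e-13), while 8 h without drug was within 2-fold of 2 h (-0.35 ± 0.08). The drug effect differed between 8 and 2 h by 2.01 ± 0.12. The narrowest range of the pathway was that of lys9. The CPM of lys9 were 1401, 1459.5 and 1502 at 0 h, 1293, 1285 and 1344 at 2 h, 867, 885 and 916 at 4 h and 763, 661 and 682 at 8 h without drug. With drug, lys9 read 711, 723 and 699 at 2 h, 699, 757 and 689.6 at 4 h and 723, 732 and 761 at 8 h. All 9 drug libraries lay within the range of the 8 h libraries without drug. At 8 h without drug lys9 was called (-1.05 ± 0.05) and with drug it was not (-0.98 ± 0.05).

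Of the arginine genes called against 0 h, arg1 was lower only without drug and arg12 only with drug. Both arg3 and arg4 were lower in each arm. The ornithine arm holds acetylglutamate synthase (arg6), the bifunctional kinase and reductase arg11 and acetylornithine aminotransferase (arg1). Carbamoyl phosphate comes from the synthase made of arg4 and arg5, and the cycle is closed by ornithine carbamoyltransferase (arg3), argininosuccinate synthase (arg12) and argininosuccinate lyase, to which both arg7 and arg41 are assigned. Without drug 3 of 9 genes were called lower at 4 h and at 8 h, beside 13.9% and 15.6% of all genes. They were arg1 (-1.08 ± 0.05 and -1.42 ± 0.05), arg4 (-1.28 ± 0.05 and -1.29 ± 0.05) and arg3 (-1.11 ± 0.05 and -1.16 ± 0.05). With drug against 0 h, arg3 and arg12 were called lower at each time and arg4 at 4 h (-1.15 ± 0.05). The CPM of arg3 were 166, 170.0 and 184 at 0 h, 118, 118 and 119.8 at 2 h, 78.8, 78.5 and 82.9 at 4 h and 79.9, 78.2 and 74.4 at 8 h without drug. With drug, arg3 read 36.2, 33.2 and 31.5 at 2 h, 35.0, 34.5 and 31.1 at 4 h and 40.8, 37.6 and 42.9 at 8 h. Every drug library of arg3 was below every library without drug. Its log2 fold change against 0 h with drug was -2.36 ± 0.05 at 2 h, -2.37 ± 0.06 at 4 h and -2.10 ± 0.05 at 8 h (adjusted p = 3.4e-20 at 2 h), and against no drug -1.81 ± 0.05 at 2 h, -1.25 ± 0.06 at 4 h and -0.94 ± 0.05 at 8 h, the last not called.

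For arg12 the CPM were 855, 901 and 932 at 0 h, 792, 789.7 and 818 at 2 h, 851, 814 and 816 at 4 h and 904, 777 and 806 at 8 h without drug. With drug, arg12 read 246, 270.1 and 259.7 at 2 h, 208, 234 and 225 at 4 h and 311, 311 and 316 at 8 h. Without drug arg12 stayed within a narrow band that overlapped 0 h at 8 h, and all drug libraries lay below it. The drug effect was -1.63 ± 0.05 at 2 h, -1.89 ± 0.05 at 4 h and -1.41 ± 0.05 at 8 h (adjusted p = 4.89e-19 at 4 h). Between the lyase genes, arg41 was lower with drug than without at 2 h (-1.04 ± 0.05) and 4 h (-1.05 ± 0.05), and arg7 was not called in either (-0.97 ± 0.05 and -0.26 ± 0.05). Without drug arg7 fell from 2 to 8 h (-1.18 ± 0.05) and arg41 did not (-0.08 ± 0.05); the difference between these 2 genes was not tested. The carbamoyl phosphate synthase genes read -1.29 ± 0.05 (arg4, called) and -0.89 ± 0.04 (arg5, not called) at 8 h. The narrowest range belonged to arg6, the enzyme at the head of the pathway. The CPM of arg6 were 179, 175 and 186 at 0 h, 155, 161 and 158 at 2 h, 174, 169.5 and 168 at 4 h and 176, 157 and 167 at 8 h without drug. With drug, arg6 read 138, 135 and 136 at 2 h, 141, 155 and 140.5 at 4 h and 123, 130.3 and 134 at 8 h. All 9 drug libraries of arg6 were below 0 h, by less than 2-fold (-0.48 ± 0.04 at 8 h). An antisense RNA named after arg4 went from a mean of 2.27 CPM at 0 h to 29.1 at 4 h with drug. The sources used here do not say whether reads were counted by strand, so its share in the arg4 counts was not tested.

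Of the 7 histidine genes 2 fell without drug, and his1 fell most. The pathway starts at ATP phosphoribosyltransferase (his1), runs through his7, his6, his4, his5 and the transaminase his3, and ends with histidinol dehydrogenase (his2). The 2 genes called lower at 4 h and at 8 h were his1 and his2, beside 13.9% and 15.6% of all genes. The CPM of his1 were 597, 631 and 625 at 0 h, 566, 572 and 582 at 2 h, 225, 229 and 241 at 4 h and 161, 149 and 154 at 8 h without drug. With drug, his1 read 647, 632 and 631 at 2 h, 582, 588 and 576 at 4 h and 504, 507 and 532 at 8 h. No 4 h or 8 h library without drug came near the others, and the drug libraries at 2 h were at or just above the top of the range at 0 h. The fall of his1 was -1.41 ± 0.04 at 4 h and -2.0 ± 0.04 at 8 h (adjusted p = 7.75e-22), and the drug effect 1.33 ± 0.04 at 4 h and 1.73 ± 0.04 at 8 h. For his2 the fall was -1.13 ± 0.05 and -1.16 ± 0.05 without drug, and -1.05 ± 0.05 at 8 h with drug, where the call ended with the compared groups only and with library size alone. With drug, his4 was lower at 2 h (-1.12 ± 0.05) and his5 at 8 h (-1.10 ± 0.05; not with library size alone). An antisense RNA named after his5 was at 5.54 CPM at 0 h and 11.2 at 2 h with drug, and its share in the his5 counts was not tested.

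The histidine gene with the widest range was his3, which had few reads. The CPM of his3 were 27.4, 21.8 and 22.9 at 0 h, 22.6, 19.6 and 19.9 at 2 h, 16.6, 18.9 and 21.3 at 4 h and 6.67, 25.1 and 26.3 at 8 h without drug. With drug, his3 read 6.38, 9.70 and 10.9 at 2 h, 3.37, 1.61 and 4.46 at 4 h and 16.6, 15.8 and 17.4 at 8 h. Replicate 1 at 8 h without drug was low, apart from the other 2 libraries of that group, and the drug libraries at 2 and 4 h were below all others except that one. His3 was lower with drug against 0 h at 2 h (-1.43 ± 0.32) and at 4 h (-2.97 ± 0.38, adjusted p = 1.75e-07), and not called at 8 h (-0.54 ± 0.29). Against no drug it was lower at 2 h (-1.22 ± 0.32) and 4 h (-2.62 ± 0.38). The narrowest range of the histidine genes was that of his6. The CPM of his6 were 123, 126 and 128 at 0 h, 101, 100.0 and 105 at 2 h, 103, 91.8 and 94.7 at 4 h and 120.4, 108 and 106 at 8 h without drug. With drug, his6 read 139, 128 and 132 at 2 h, 127, 132 and 124 at 4 h and 104, 102 and 103 at 8 h. Its groups lay within 2-fold of each other, and it was not called in any comparison.

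Among the aromatic genes, chorismate synthase (aro2) fell most without drug, and chorismate mutase (aro7) fell most at 2 and 4 h with drug. The multifunctional Aro1 protein carries out the middle steps of the shikimate pathway, aro2 makes chorismate, and from there trp3 and trp1 (anthranilate synthase), trp4 and trp2 (tryptophan synthase) lead to tryptophan, and chorismate mutase (aro7) and prephenate dehydrogenase (tyr1) towards phenylalanine and tyrosine. Without drug 2 of 8 genes were called lower at 4 h (aro2 and trp3) and 3 at 8 h (with trp2), beside 13.9% and 15.6% of all genes. The CPM of aro2 were 687, 732 and 725 at 0 h, 415, 433 and 459 at 2 h, 187, 186 and 193 at 4 h and 174, 168 and 169 at 8 h without drug. With drug, aro2 read 332, 306 and 289.5 at 2 h, 381, 387 and 373 at 4 h and 343, 357 and 369 at 8 h. All 18 starved libraries of aro2 were below 0 h, those at 4 and 8 h without drug lowest. The fall was -1.92 ± 0.05 at 4 h and -2.07 ± 0.05 at 8 h (adjusted p = 1.04e-20), and with drug -1.21 ± 0.05 at 2 h, -0.91 ± 0.05 at 4 h (not called) and -1.0 ± 0.05 at 8 h, a call that ended in 7 of 13 alternatives. Against no drug aro2 was higher at 4 h (1.01 ± 0.05, ended in 4 of 13 alternatives) and 8 h (1.07 ± 0.05). For trp3 the fall was -1.58 ± 0.05 at 8 h, and for trp2 -1.16 ± 0.04, while trp1, which holds the other part of anthranilate synthase, read -0.91 ± 0.04 and was not called. Unlike aro2, aro7 was called only in comparisons that involve the drug. It read 0.05 ± 0.04 and 0.04 ± 0.04 at 4 and 8 h without drug, and the drug effect was -1.29 ± 0.04 at 2 h, -1.50 ± 0.04 at 4 h and -1.13 ± 0.04 at 8 h, all called. The CPM of aro7 were 105, 97.6 and 104 at 0 h, 93.5, 90.3 and 93.5 at 2 h, 105, 107 and 106 at 4 h and 105, 106 and 106 at 8 h without drug. With drug, aro7 read 36.4, 38.3 and 39.1 at 2 h, 36.1, 37.0 and 39.7 at 4 h and 47.4, 47.5 and 49.2 at 8 h. The 12 libraries of aro7 without drug kept to a narrow band, and all 9 drug libraries were below them. For tyr1 the only call was at 8 h with drug against 0 h (-1.13 ± 0.06; not with library size alone). Of the aromatic genes trp4, whose product attaches a phosphoribosyl group to anthranilate, had the narrowest range. The CPM of trp4 were 113, 107 and 110.3 at 0 h, 108, 104 and 107 at 2 h, 103, 104 and 108 at 4 h and 104, 94.3 and 96.5 at 8 h without drug. With drug, trp4 read 102, 96.8 and 96.7 at 2 h, 103, 107 and 96.0 at 4 h and 92.3, 96.6 and 95.9 at 8 h. All groups of trp4 lay close together, and it was not called in any comparison.

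Serine genes were low in both arms. Phosphoglycerate dehydrogenase (ser3), phosphoserine aminotransferase (ser1) and phosphoserine phosphatase (ser2) make serine from a glycolytic intermediate. Without drug ser2 and ser3 were lower at 4 h (-1.05 ± 0.04 and -1.29 ± 0.04) and at 8 h (-1.44 ± 0.04 and -1.44 ± 0.04). With drug 2 of the 3 genes were lower at 2 h and all 3 at 4 and 8 h, beside 14.5%, 14.8% and 14.1% of all genes. The CPM of ser2 were 159.6, 159 and 168 at 0 h, 136, 138 and 148 at 2 h, 77.2, 78.5 and 79.2 at 4 h and 59.0, 61.0 and 59.8 at 8 h without drug. With drug, ser2 read 45.6, 40.8 and 41.4 at 2 h, 42.0, 43.9 and 41.1 at 4 h and 60.4, 62.5 and 65.5 at 8 h. At 2 h the drug libraries lay far below those without drug, and at 8 h the arms overlapped. The drug effect on ser2 was -1.72 ± 0.04 at 2 h (adjusted p = 2.3e-19) and 0.07 ± 0.04 at 8 h, a difference of 1.79 ± 0.06. An antisense RNA named after ser2 went from a mean of 1.02 CPM at 0 h to 8.89 at 8 h and 10.8 at 8 h with drug, and its share in the ser2 counts was not tested. The narrowest range of the 3 genes was that of ser1. The CPM of ser1 were 640.2, 670.2 and 692 at 0 h, 458, 467 and 480.2 at 2 h, 430.1, 418 and 422 at 4 h and 364, 329.9 and 331 at 8 h without drug. With drug, ser1 read 351, 370.5 and 347 at 2 h, 295, 318 and 293 at 4 h and 244, 241 and 239 at 8 h. Every starved library of ser1 was below 0 h, and it was called at 4 h (-1.14 ± 0.04) and 8 h (-1.47 ± 0.04) with drug. At 8 h without drug it read -0.97 ± 0.04, not called except without replicate 1 at 8 h.

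The threonine gene thr1, which encodes homoserine kinase, fell without drug. The CPM of thr1 were 116, 115 and 125 at 0 h, 82.5, 88.5 and 92.9 at 2 h, 51.3, 49.7 and 53.8 at 4 h and 44.4, 45.0 and 45.5 at 8 h without drug. With drug, thr1 read 61.9, 61.3 and 62.5 at 2 h, 73.0, 73.3 and 72.7 at 4 h and 71.8, 67.2 and 66.6 at 8 h. All starved libraries of thr1 were below those at 0 h, and those at 4 and 8 h without drug lowest. Against 0 h thr1 read -1.20 ± 0.04 at 4 h and -1.40 ± 0.04 at 8 h, both called (adjusted p = 2.8e-18), and with drug it was not called at any time. Of the proline genes, pro1 (gamma-glutamyl phosphate reductase) was called lower at 4 h (-1.01 ± 0.03), a call that ended in 5 of 13 alternatives (DESeq2, RLE size factors, library size alone, a stricter filter, and without replicate 3 at 0 h), and pro2 (glutamate 5-kinase, the first step) was not called in any of the 12 comparisons. The CPM of pro1 were 178, 177 and 183 at 0 h, 121, 121 and 128 at 2 h, 88.9, 87.8 and 90.1 at 4 h and 92.9, 90.5 and 93.5 at 8 h without drug. With drug, pro1 read 175, 181 and 176 at 2 h, 145, 143 and 152 at 4 h and 130.1, 135 and 129.5 at 8 h. The libraries at 4 and 8 h without drug were the lowest of pro1, and those at 2 h with drug overlapped 0 h. The CPM of pro2 were 142, 149 and 149.7 at 0 h, 108, 102 and 109 at 2 h, 86.1, 84.5 and 82.6 at 4 h and 114, 115 and 115 at 8 h without drug. With drug, pro2 read 82.8, 87.3 and 84.6 at 2 h, 89.3, 93.0 and 91.8 at 4 h and 95.5, 99.6 and 98.9 at 8 h. At 8 h without drug pro2 lay above 2 and 4 h and below 0 h.

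The sulphur genes held both the deepest fall and the highest rise against 0 h among the 64 genes. Sulfate is activated by sulfate adenylyltransferase and phosphorylated by adenylyl-sulfate kinase (met14), reduced by the reductase met16 and by sulfite reductase, whose flavoprotein subunit is met10 and whose siroheme cofactor is made with met1 and met8, and joined by homocysteine synthase (met17) to the O-acetylhomoserine that met6 makes. Methionine synthase (met26) then takes a methyl group from folate, which the methylenetetrahydrofolate reductases met9 and met11 supply and whose polyglutamate tail met7 adds. Without drug 2 of 15 genes were called lower at 4 h (met14 and met17) and 5 at 8 h (with met9, met10 and met26). Over all genes 13.9% and 15.6% were called lower, so the share at 4 h was near the background. With drug 4 were called lower at each time, beside 14.5%, 14.8% and 14.1% of all genes. In this arm met6 was higher at 4 and 8 h, beside 14.8% and 12.6% of all genes.

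Adenylyl-sulfate kinase fell furthest. The CPM of met14 were 433, 455 and 455 at 0 h, 329, 334 and 342 at 2 h, 65.8, 69.0 and 70.3 at 4 h and 48.0, 50.7 and 49.7 at 8 h without drug. With drug, met14 read 257, 249 and 252 at 2 h, 256, 251 and 256 at 4 h and 242, 249 and 274 at 8 h. At 4 and 8 h without drug met14 was several-fold below every other library, while the 9 drug libraries kept to one level between. The fall was -2.71 ± 0.04 at 4 h and -3.18 ± 0.04 at 8 h against 0 h (adjusted p = 6.99e-24), which is 9.05-fold at 8 h. With drug it was not called against 0 h at any time (-0.83 ± 0.04, -0.82 ± 0.04 and -0.81 ± 0.04), and the drug effect was -0.41 ± 0.04 at 2 h, 1.89 ± 0.04 at 4 h and 2.37 ± 0.04 at 8 h. Of all members met14 had the highest interaction of drug and time (2.78 ± 0.06). The next enzymes moved less: met16 read -0.53 ± 0.03 and met10 -1.38 ± 0.05 at 8 h without drug, of which met10 was called. With drug met16 was lower at 2 h (-1.18 ± 0.03) and 4 h (-1.01 ± 0.03, a call that ended in 5 of 13 alternatives), and met10 was not called against 0 h. Of the siroheme genes, met8 fell with drug (-1.15 ± 0.05, -1.07 ± 0.05 and -1.75 ± 0.05 at 2, 4 and 8 h; the call at 4 h ended with library size alone), while met1 was not called in any comparison.

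Homoserine O-acetyltransferase (met6) was higher with drug. The CPM of met6 were 393, 408 and 424 at 0 h, 294, 306 and 303 at 2 h, 202, 210.5 and 205 at 4 h and 216, 210.4 and 201 at 8 h without drug. With drug, met6 read 646, 622 and 608 at 2 h, 976, 984 and 909 at 4 h and 1124, 1097 and 1054 at 8 h. Without drug it stepped down to 4 h, with overlap of 4 and 8 h, and with drug every later group lay above the one before. Against no drug met6 was higher by 1.06 ± 0.04 at 2 h, 2.22 ± 0.04 at 4 h and 2.38 ± 0.04 at 8 h (adjusted p = 4.26e-22 at 8 h). Against 0 h it rose by 1.23 ± 0.04 at 4 h and 1.42 ± 0.04 at 8 h. The files assign the same activity to cys2, which was not called against 0 h in either arm (-0.81 ± 0.04 at 8 h and -0.60 ± 0.04 at 8 h with drug).

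With drug against 0 h, met17, whose enzyme uses the product of met6, went the other way. Without drug both genes were below 0 h at 4 and 8 h. The CPM of met17 were 224, 236 and 249 at 0 h, 244, 281 and 268 at 2 h, 103, 105 and 109 at 4 h and 112, 101 and 98.3 at 8 h without drug. With drug, met17 read 50.05, 53.0 and 49.4 at 2 h, 80.2, 82.4 and 74.8 at 4 h and 32.2, 33.6 and 31.5 at 8 h. The 2 h libraries without drug overlapped those at 0 h, those at 4 and 8 h were low, and all 9 with drug lower still. The fall was -1.19 ± 0.05 at 8 h without drug and -2.22 ± 0.06, -1.58 ± 0.05 and -2.86 ± 0.06 with drug at 2, 4 and 8 h (adjusted p = 9.74e-21 at 8 h). Against no drug met17 read -2.38 ± 0.06 at 2 h, -0.42 ± 0.05 at 4 h (not called) and -1.67 ± 0.06 at 8 h. Cystathionine gamma-synthase (met3) was not called in any comparison.

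Methionine synthase had the most reads of the sulphur genes and sets the sum of the pathway. The CPM of met26 were 5584, 5961 and 5812 at 0 h, 7742, 7899.8 and 7839 at 2 h, 3630.1, 3785 and 3854 at 4 h and 2823, 2456 and 2589 at 8 h without drug. With drug, met26 read 5496, 5372 and 5118 at 2 h, 3455, 3597 and 3172 at 4 h and 2742, 2780.1 and 2905 at 8 h. At 2 h without drug all 3 libraries were above 0 h, by less than 2-fold (0.44 ± 0.06), and from there met26 fell by 1.58 ± 0.06 to 8 h. The sulphur sum was 8543 ± 243 CPM at 0 h, 10449.7 ± 138 at 2 h and 4129.8 ± 238 at 8 h, and without met26 it was 2758 ± 69.8, 2623 ± 58.6 and 1507 ± 58.0. With drug the sum without met26 was 2942 ± 14.2 at 8 h, a level to which met6 adds most of the difference from no drug. Both methylenetetrahydrofolate reductases had positive values against 0 h with drug (0.57 ± 0.04 for met9 and 0.71 ± 0.03 for met11 at 8 h, not called), and met9 was called lower at 8 h without drug (-1.15 ± 0.04), where met11 read -0.38 ± 0.03. The difference between these genes was not tested. The folylpolyglutamate synthase gene met7 was lower with drug than without at 2, 4 and 8 h (-1.08 ± 0.06, -1.14 ± 0.06 and -1.40 ± 0.06). The narrowest range of the sulphur genes was that of cys12, a cysteine synthase-like gene. The CPM of cys12 were 49.9, 48.4 and 46.9 at 0 h, 57.1, 57.6 and 57.8 at 2 h, 60.5, 61.8 and 56.4 at 4 h and 58.8, 52.0 and 54.7 at 8 h without drug. With drug, cys12 read 56.1, 53.6 and 54.9 at 2 h, 51.8, 56.2 and 51.9 at 4 h and 50.01, 49.7 and 48.4 at 8 h. It was not called in any comparison, nor was cysteine synthase (cys11), which read 0.58 ± 0.05 at 2 h as its highest value against 0 h.

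**Figure D5:**
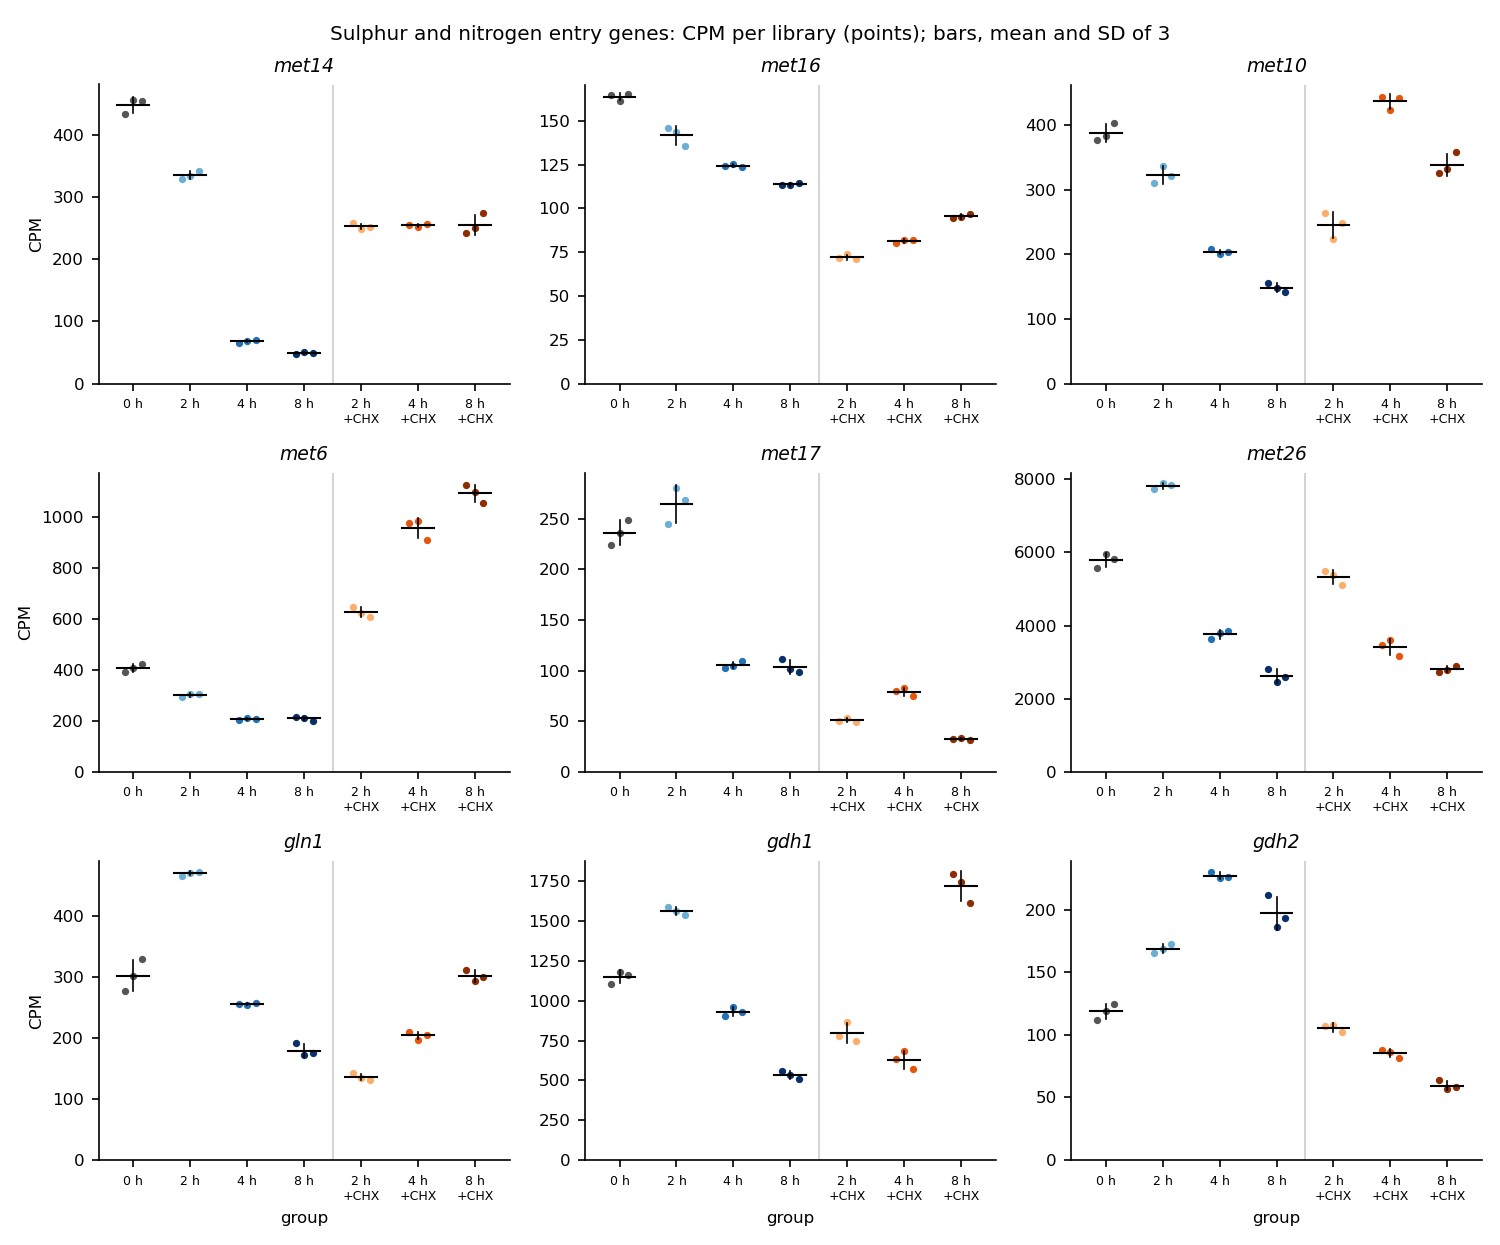
CPM (vertical axis, from 0) of 6 sulphur genes and 3 genes of nitrogen entry in every library (points), with the mean and SD of 3 libraries per group (bars); CHX, cycloheximide. Without drug met14 drops between 2 and 4 h; with drug it lies between 242 and 274 CPM, met6 climbs from 2 to 8 h, and gln1 and gdh1 end near or above their level at 0 h.

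Of the genes of nitrogen entry, glutamine synthetase (gln1) and the NADP-dependent glutamate dehydrogenase (gdh1) were above 0 h at 2 h, by less than 2-fold. Both fell from there to 8 h without drug. At 2 h asn1 (-0.40), asn2 (-0.48) and glt1 (-0.28) were below 0 h, none called. This course was not particular to gln1 and gdh1. Means of arg7 and of the sulphur genes met26, met9, cys2 and met17 also lay above 0 h at 2 h and fell from there to 8 h. So did those of shm1, sam1, sua1, car2 and put2, which the naming rule did not match. Gdh1 joins ammonia to 2-oxoglutarate, Gln1 makes glutamine, glutamate synthase (glt1) turns glutamine and 2-oxoglutarate into glutamate, asparagine synthetases are encoded by asn1 and asn2, and the NAD-dependent Gdh2 works in the direction of glutamate breakdown. Against 0 h without drug 3 of 6 genes were called lower at 4 h (asn1, asn2 and glt1, of which asn2 and glt1 each ended in 6 of 13 alternatives) and 2 at 8 h (asn1 and gdh1). Over all genes 13.9% and 15.6% were called lower. The CPM of gln1 were 277, 301 and 328 at 0 h, 466, 470.5 and 472 at 2 h, 256, 254 and 257 at 4 h and 192, 171 and 174 at 8 h without drug. With drug, gln1 read 142, 135 and 131 at 2 h, 209, 197 and 206 at 4 h and 312, 293 and 299.5 at 8 h. All 3 libraries at 2 h without drug were above the rest, and with drug the order turned, from the lowest at 2 h to the range of 0 h at 8 h. Against no drug gln1 read -1.79 ± 0.05 (called) at 2 h and 0.75 ± 0.05 at 8 h, an interaction of 2.54 ± 0.07 (adjusted p = 2.57e-18). It fell by 1.39 ± 0.05 from 2 to 8 h without drug, and rose by 1.15 ± 0.05 over the same interval with drug.

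The CPM of gdh1 were 1106, 1181 and 1165 at 0 h, 1588, 1566 and 1536 at 2 h, 902, 959 and 931 at 4 h and 557, 534 and 509.5 at 8 h without drug. With drug, gdh1 read 776, 865 and 747 at 2 h, 634, 684 and 570.3 at 4 h and 1796, 1745 and 1613 at 8 h. At 8 h the drug libraries were above every other library of gdh1, and the libraries without drug below all others. It fell by 1.55 ± 0.06 from 2 to 8 h without drug and rose by 1.11 ± 0.06 with drug, an interaction of 2.66 ± 0.09 (adjusted p = 2.86e-17). With drug its mean went from 629.8 CPM at 4 h to 1718 at 8 h, a step that was not tested on its own. The CPM of gdh2 were 112, 119 and 125 at 0 h, 165, 169 and 172 at 2 h, 230.2, 225 and 226 at 4 h and 212, 186 and 193 at 8 h without drug. With drug, gdh2 read 107, 108 and 102 at 2 h, 87.7, 86.3 and 81.6 at 4 h and 63.6, 56.7 and 58.1 at 8 h. Without drug gdh2 was above 0 h in every starved library without drug, by less than 2-fold (0.51 ± 0.05, 0.94 ± 0.05 and 0.73 ± 0.05), and with drug each later group lay below the one before. The drug effect on gdh2 was -1.41 ± 0.05 at 4 h and -1.73 ± 0.05 at 8 h, both called, and its interaction (-1.06 ± 0.07) was the only one called lower among the members. At 8 h with drug against 0 h it read -1.0 ± 0.05, a call at the 2-fold limit that ended in 7 of 13 alternatives (compared groups only, DESeq2, RLE size factors, library size alone, without replicate 3 at 0 h, and without replicate 2 or 3 at 8 h with drug).

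Of the other genes of nitrogen entry, glt1 and asn1 were higher with drug than without at 4 h (1.70 ± 0.04 and 1.04 ± 0.05, the latter not with library size alone or without replicate 2 at 4 h with drug) and 8 h (1.34 ± 0.04 and 1.06 ± 0.05). The narrowest range was that of asn2. The CPM of asn2 were 129.8, 129 and 128 at 0 h, 87.8, 90.6 and 98.0 at 2 h, 63.0, 65.0 and 64.0 at 4 h and 70.1, 63.0 and 61.5 at 8 h without drug. With drug, asn2 read 55.9, 48.9 and 47.9 at 2 h, 69.5, 73.2 and 71.4 at 4 h and 71.7, 73.5 and 77.9 at 8 h. All starved libraries were below 0 h, lowest at 2 h with drug, the only group in which asn2 was called with drug (-1.34 ± 0.05). The summed CPM of the 6 genes was 3851 ± 140.0 at 0 h, 3966 ± 9.75 at 2 h, 1888 ± 88.5 at 8 h and 4204 ± 162 at 8 h with drug.

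Ratios of summed CPM to 0 h put the pathways in an order at 8 h without drug. It was 0.365 for branched-chain, 0.379 for threonine, 0.383 for lysine, 0.434 for serine, 0.483 for sulphur, 0.490 for nitrogen entry, 0.493 for aromatic, 0.512 for histidine, 0.609 for arginine and 0.635 for proline genes. With drug at 8 h it was 0.342 for serine, 0.578 for threonine, 0.580 for lysine, 0.587 for aromatic, 0.602 for arginine, 0.627 for histidine, 0.673 for sulphur, 0.703 for proline, 0.783 for branched-chain and 1.09 for nitrogen entry genes. The place of the sulphur genes is set by met26: without it their ratio was 0.5465 without drug, between histidine and arginine, and 1.07 with drug, between branched-chain and nitrogen entry genes. These ratios depend on the scaling. Library size alone in place of TMM gave larger ratios in the same orders. At 8 h without drug it gave 0.420 for branched-chain, 0.565 for nitrogen entry and 0.701 for arginine genes. At 8 h with drug it gave 0.402 for serine, 0.921 for branched-chain and 1.28 for nitrogen entry genes. Neighbours in either order were not tested against each other. Of the 64 genes, 36 had their highest mean at 0 h, 25 their lowest at 8 h without drug and 12 at 4 h without drug. These counts were not made over all genes, so they have no background to be set against.

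Of the 3 genes that only share a prefix, trp1322 was called higher at 2 h with drug, arg82 was called lower at 8 h without drug, and trp663 had few reads. The CPM of trp1322 were 24.7, 24.2 and 20.7 at 0 h, 35.9, 38.9 and 34.6 at 2 h, 40.5, 45.1 and 44.6 at 4 h and 39.7, 41.1 and 39.6 at 8 h without drug. With drug, trp1322 read 46.7, 49.8 and 48.5 at 2 h, 41.2, 42.5 and 40.9 at 4 h and 41.0, 42.5 and 41.8 at 8 h. All starved libraries of trp1322 were above 0 h, and the value at 2 h with drug (1.06 ± 0.06) was called, except when replicate 3 at 0 h was left out. For trp663 the CPM were 0.384, 0.387 and 0.428 at 0 h, 0.718, 0.620 and 0.577 at 2 h, 0.765, 1.32 and 1.04 at 4 h and 0.702, 0.974 and 0.461 at 8 h without drug. With drug, trp663 read 0.160, 0.503 and 0.449 at 2 h, 0.317, 0.107 and 0.131 at 4 h and 0.338, 0.146 and 0.110 at 8 h. Between 3 and 38 counts per library stood behind them, so that its calls (higher at 4 h, 1.36 ± 0.36, and lower with drug at 4 h and 8 h, -2.47 ± 0.42 and -1.92 ± 0.44) rest on few reads. The CPM of arg82 were 72.9, 70.2 and 74.7 at 0 h, 54.9, 55.7 and 60.5 at 2 h, 40.1, 38.8 and 40.2 at 4 h and 33.3, 32.6 and 36.0 at 8 h without drug. With drug, arg82 read 42.9, 41.3 and 43.5 at 2 h, 42.6, 40.8 and 47.1 at 4 h and 43.1, 43.3 and 44.5 at 8 h. All starved libraries of the kinase gene arg82 were below 0 h, and it was called lower at 8 h without drug (-1.10 ± 0.05).

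Enzymes of the same pathways that the naming rule did not match were described from a list of 18, of which 12 were in the files by name. At 4 h without drug 3 were called lower (eca39, gly1 and sir1; 13.9% of all genes) and at 8 h 6 (15.6% of all genes), with none higher (14.2% and 19.0% of all genes). The 6 were the branched-chain aminotransferase eca39 (-1.76 ± 0.05), the threonine aldolase gly1 (-1.75 ± 0.04), the serine hydroxymethyltransferase shm1 (-2.04 ± 0.06), S-adenosylmethionine synthetase sam1 (-1.36 ± 0.04), the sulfite reductase subunit sir1 (-1.50 ± 0.05) and sulfate adenylyltransferase sua1 (-1.39 ± 0.07). Both sua1 and sir1 act beside met14 and met10 in sulfate reduction. With drug at 8 h 5 were lower, beside 14.1% of all genes. They were eca39 (-1.81 ± 0.05), sua1 (-1.24 ± 0.07), sir1 (-1.13 ± 0.05), the second serine hydroxymethyltransferase shm2 (-1.08 ± 0.05) and the glycine decarboxylase subunit gcv1 (-1.04 ± 0.03). The mitochondrial aspartate aminotransferase maa1 was lower at 2 h with drug (-1.93 ± 0.05). At 2 h without drug none was called.

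Of the genes of amino acid breakdown, only arginase (car1) and the GABA transaminase uga1 were called higher than at 0 h without drug. The list held 10 genes, of which 7 were in the files, 1 of them the member gdh2. The gene gcv1 is also in the list of unmatched enzymes above, so it is counted in both lists. The rise of car1 was 3.25 ± 0.09 at 2 h, 4.34 ± 0.09 at 4 h and 3.34 ± 0.09 at 8 h without drug, and the drug effect on it -3.70 ± 0.09, -4.67 ± 0.10 and -2.86 ± 0.09. Its CPM were 32.5, 37.8 and 37.0 at 0 h, 356, 364 and 300.4 at 2 h, 736, 733 and 708 at 4 h and 389, 346 and 352 at 8 h without drug. With drug, car1 read 26.8, 26.9 and 24.5 at 2 h, 27.3, 32.3 and 25.3 at 4 h and 55.0, 51.6 and 43.1 at 8 h. The drug libraries of car1 lay within 2-fold of those at 0 h, and all starved libraries without drug were several-fold above. Of the others, uga1 was higher at 4 h (1.33 ± 0.08) and 8 h (1.83 ± 0.08). At 2, 4 and 8 h without drug 1, 2 and 2 of 7 were called higher, beside 3.94%, 14.2% and 19.0% of all genes. None was called lower, beside 1.81%, 13.9% and 15.6%. Means of gdh2 and gcv1 lay above 0 h at each time, without a call. So did those of car2, put1 and put2 at 2 and 4 h. From 2 to 8 h without drug uga1 was higher (13.6% of all genes) and car2 and put2 were lower (9.79%). With drug against no drug, 4 of 7 were lower at 2 h (car1, car2, gcv1 and uga1), 5 at 4 h (with gdh2) and 4 at 8 h (without car2), and none was called higher. Of all genes 13.5%, 20.9% and 20.8% were lower and 15.8%, 19.9% and 17.1% higher in these comparisons.

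Of the regulators of amino acid supply, a list of 24 genes that were all measured, 6 were called at 8 h without drug, beside 19.0% of all genes higher and 15.6% lower. At 8 h 2 were higher, the eIF2 alpha kinase gene hri1 (2.02 ± 0.07) and fil1 (1.27 ± 0.05), and 4 lower, cpc2 (-3.38 ± 0.07), which encodes the ribosome-bound RACK1 protein, tif211 (-1.89 ± 0.05), which encodes eIF2 alpha itself, the Gcn2 activator gcn1 (-1.33 ± 0.04) and the arrestin-related any1 (-1.10 ± 0.04). At 2 h none was called, and at 4 h hri1 was higher (14.2% of all genes) and any1, cpc2 and tif211 lower (13.9%). The CPM of fil1 were 247, 245 and 270.5 at 0 h, 353, 356 and 339 at 2 h, 398, 375 and 370.5 at 4 h and 608, 630.2 and 601 at 8 h without drug. With drug, fil1 read 390.1, 391 and 392 at 2 h, 402, 382 and 355 at 4 h and 486, 472 and 464 at 8 h. It was higher at 8 h without drug than in any 0 h library, and against 0 h it was not called at any time with drug. At 8 h with drug, beside 12.6% of all genes higher and 14.1% lower, 3 were higher, hri1 (2.86 ± 0.07) and the stress factors atf1 (1.34 ± 0.06) and pcr1 (1.31 ± 0.10), and 2 lower, hri2 (-1.41 ± 0.05) and the GATOR1 subunit npr3 (-1.32 ± 0.05). The kinase gene gcn2 and the TOR kinase genes tor1 and tor2 were not called in any comparison.

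In the authors' deposited tables, which compare each starved group with 0 h, the same thresholds call 0 members at 2 h, 1 higher and 25 lower at 4 h, and 30 lower at 8 h, and with drug 2 higher and 18 lower, 1 and 12, and 1 and 15 at 2, 4 and 8 h. The log2 fold changes in the authors' deposited tables differed from those given here by at most 0.09 for any member.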

How the data were processed

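Polyadenylated RNA of 21 libraries (7 groups of 3) was sequenced from both ends after a stranded mRNA kit. The authors deposited raw read counts per gene for 6988 genes, and tables of their own comparisons of each starved group with 0 h, which hold a log2 fold change and an adjusted p-value per gene from DESeq2, per the file headers. The submitters' processing notes name HISAT2 2.1.0, SAMtools, HTSeq 0.10.0, DESeq and DESeq2 and the build ASM294v2. How each was set, and whether reads were counted by strand, the sources used here do not say.

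From the deposited counts, genes with too few reads for their group were removed with edgeR's filterByExpr (596 of 6988), which left 6392. A quasi-likelihood model with 1 mean per group was fitted to all 21 libraries after TMM scaling (edgeR 4.0.16 in R 4.3.3), so that all groups share 1 estimate of the spread, and p-values were adjusted over all tested genes by Benjamini-Hochberg. Drug and time were tested together as an interaction. CPM divide counts by the TMM-scaled library total, without a pseudocount. Totals of 22079413 to 33563867 counts leave trp663 with as few as 3 reads in a library, and the precision of its values is low. The labels call the 3 libraries of a group biological replicates and do not say whether they came from separate cultures. If they did not, the p-values measure only technical spread.

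Alternatives were a fit with DESeq2 1.42.0, scaling by RLE size factors or by library size alone, no filter or a stricter one (a mean of at least 100 counts), a fit of only the compared groups, calls at any fold, a block for the replicate number, leaving out each library, and leaving out the 3 genes that share only a prefix. Leaving out replicate 1 at 8 h was also looked at on its own after the data were seen. The steps were tested on simulated data. Values in every library were given for the members with the widest and the narrowest range of group mean log2 CPM of each pathway. For this range a small constant was added to each CPM before the logarithm. Such values were also given for the 3 highest and 3 lowest called members of each comparison. The genes nearest to 2-fold at 8 h and the 3 that share only a prefix were given in the same way. From the other lists the rule was to name up to 4 called genes per comparison with the largest change. Where a list had 5 or 6 calls all were named, fil1 was given in every library for its role, and gcn2, tor1 and tor2 were named though not called, all after their values were seen. Other members were named for their step in a pathway, some after their values were seen. The members and gene lists were chosen with earlier results of these data known. Sequences and promoters were not analysed here. RefSeq's gene table (assembly ASM294v3) was used only to look up gene type and gene order.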

Additional observations from a re-analysis of the deposited data

Results flagged for a closer look

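For 20 members the drug effect at 8 h differed from that at 2 h by the interaction term, with an adjusted p below 0.05 and at least 2-fold, by edgeR's quasi-likelihood test over 6392 genes (12.6% of all genes called higher, 19.4% lower). Each value below is the log2 drug effect at 8 h minus that at 2 h, from 3 libraries in each of 4 groups. Highest were the sulphate activation gene met14 (2.78), the nitrogen entry genes gdh1 (2.66) and gln1 (2.54), the lysine gene lys7 (2.01) and the serine gene ser2 (1.79). Next came his1 (1.58) of histidine, met10 (1.58), met9 (1.44) and met6 (1.33) of the sulphur genes, aro2 (1.56) and trp3 (1.38) of the aromatic genes, and lys12 (1.3), lys2 (1.14) and lys3 (1.07) of lysine synthesis. The arginine genes arg1 (1.23) and arg7 (1.15), thr1 (1.12) of threonine, ilv5 (1.11) of the branched-chain amino acids and asn2 (1.05) of asparagine completed the higher ones, and the call of asn2 ended with a stricter filter on low counts. The glutamate dehydrogenase gene gdh2 (-1.06) was the only member called lower. These differences combine the course with drug and the course without it, and both are given for met14, gdh1, gln1, lys7, ser2, his1, aro2, met6, lys3, thr1, ilv5 and gdh2 in every library above.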

How the results depend on the processing

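No member's called value changed sign under any alternative. Under library size alone, the members called higher and lower were 3 and 12 at 4 h, 2 and 20 at 8 h, and 2 and 9 at 8 h with drug, each against 0 h. That scaling moved the median log2 fold change of all genes by more than 0.1 in 8 h against 2 h (to 0.12), 8 h against 2 h with drug (to 0.13), and 2 h and 4 h with drug against 0 h (to 0.06 and 0.04) as well. At 4 h the 1 higher call, trp663, was lost (0 higher) under a stricter filter, which removes it, and when the 3 genes sharing only a prefix were set aside. At 2 h with drug, higher calls were 2 in place of 1 (leu3 beside trp1322) with the compared groups only, DESeq2, RLE size factors or library size alone, and 0 without the 3 genes. Counting an adjusted p below 0.05 at any fold gave many more calls, here as members higher, members lower and all genes either way. They were 12, 49 and 4159 at 2 h, 7, 55 and 5350 at 4 h, and 6, 57 and 5533 at 8 h against 0 h. With drug against 0 h they were 11, 48 and 5565 at 2 h, 12, 49 and 5534 at 4 h, and 9, 52 and 5384 at 8 h. For drug against none they were 17, 47 and 5480 at 2 h, 37, 26 and 5722 at 4 h, and 36, 22 and 5699 at 8 h. From 2 to 8 h they were 6, 54 and 5310 without drug and 25, 27 and 4839 with it, and for the interaction 51, 8 and 5226.

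Leaving out 1 library at a time, members called lower against 0 h numbered 26 to 30 at 4 h, 30 to 33 at 8 h, and with drug 19 each time at 2 h, 14 to 15 after 4 h and 16 to 21 after 8 h. Members called higher ranged from 0 to 1 at 8 h, and with drug from 0 to 1 at 2 h. For drug against none, higher calls ranged from 11 to 14 at 4 h and 14 to 18 at 8 h, and lower calls from 12 to 15 at 2 h and 8 to 9 at 4 h. From 2 to 8 h, lower calls ranged from 18 to 21 without drug and 0 to 1 with it, and higher calls with drug from 3 to 4. For the interaction they ranged from 19 to 21 higher and 1 to 2 lower. The correlation of same-numbered libraries' deviations ran from -0.289 to 0.371, and in no comparison of 2 groups made here was it above 0.1 for all 3 numbers, so the numbers were not taken as pairs. It was above 0.1 for all 3 between 4 and 8 h without drug (0.104 to 0.156), which were not compared, and between 8 h without drug and 2 h with drug (0.113 to 0.371), which meet only in the interaction. Of the 21 libraries 12 correlated best with their own number, a hint from the data and not from the design. With the replicate number as a block, calls stayed at 1 higher and 28 lower at 4 h and 0 higher and 31 lower at 8 h, and the interaction gave 20 higher and 1 lower. Few reads limit his3, lys7 and trp663.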

Other observations

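A few members lie next to each other in the genome, by the order of genes in RefSeq's table, and had different calls. The arginine genes arg11 and arg3 are neighbours, with 0 protein-coding genes between them. At 2 h with drug against 0 h they read -0.70 ± 0.04 (not called) and -2.36 ± 0.05 (called), and at 8 h without drug -0.27 ± 0.04 (not called) and -1.16 ± 0.05 (called). The branched-chain gene ilv5 and the sulphur gene met6 are neighbours too. At 8 h without drug ilv5 was called lower (-1.85 ± 0.06) and met6 was not called (-0.97 ± 0.04), and at 8 h with drug ilv5 was not called (-0.37 ± 0.06) and met6 was higher (1.42 ± 0.04). The difference between neighbours was not tested.

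Of the 67 members 13 were called in none of the 12 comparisons: arg11, arg5 and arg6 of arginine, aro1, trp1 and trp4 of the aromatic genes, his6 and his7 of histidine, cys11, cys12, met1 and met3 of the sulphur genes, and pro2. The same count over all tested genes was not made, so 13 is read as neither few nor many.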
